A study of Mus musculus with 2 samples.

Results

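The genes of the centrosome, the basal body and the cilium were examined on 2 Mouse Genome 430A 2.0 arrays (Affymetrix, 1 colour), which hybridised RNA of uterine stromal cells taken from mice on day 5 of pregnancy. Members were found by symbol, as genes whose names begin with Cep, Bbs, Ift or Tubgcp and a digit, together with 15 further named genes. A probe set counted if the annotation gave it a single symbol. This gave 44 genes with 65 probe sets, out of 12393 genes with 20380 such probe sets. Of the 15 further names, 8 had a probe set and the other 7 (Rpgrip1l, Pcnt, Ninl, Arl6, Arl13b, Mks1 and Tctn1) were not analysed here. The RefSeq gene table holds 83 symbols that meet the rule, so the arrays show 44 of them. The members fall into a centrosome group (25 genes), a BBSome group (4), a transport group (13, with the cargo GTPase Arl3) and a transition zone group (2). The set was selected on gene symbols with the log2 ratios of this same contrast already known, among them those of Bbip1 and Rpgrip1, the 2 highest on these arrays, so all values are given as a description.

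The knockout-labelled array carried cells of mice that the titles call Hif1 cKO, and the control array carried cells of Hif1 flox controls, with the cells of 3 animals pooled on each. The labels disagree on the deleted gene, since the genotype field gives Hif2 alpha as null or intact and the breeding note crosses Hif1 floxed mice with PRcre mice and names Rac1 as the gene ablated. PRcre drives Cre from the progesterone receptor gene, so in the uterus it is not limited to stroma. Ages and strain were not given in the sources used here. Each group has 1 array, so no difference has a test, and the values speak of the 2 arrays, not of the genotypes.

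The genes that the labels name were all above the floor on both arrays. At the brightest probe set of each, Hif1a had signals of 1544 on the knockout-labelled array and 721 on the control array. Epas1 (which encodes Hif2 alpha) had 78.1 and 59.4, and Rac1 had 757 and 1038. Further probe sets of Hif1a had 297 and 114, and 38.7 and 27.0, so these too were higher on the knockout-labelled array. The other probe set of Rac1 had 332 and 664, also lower on the knockout-labelled array. Whether these probes lie inside the deleted exons was not analysed here. As scaled by the authors, trimmed mean signals were equal (150.1 on both arrays), so this equality does not speak of the samples. The median signals were 34.4 on the knockout-labelled array and 41.8 on the control array. The signal at the 3′ end over that at the 5′ end was 16.0 on the knockout-labelled array and 2.27 on the control array for b-actin, and 7.25 and 1.49 for Gapdh, and its part in the results below was not tested. Of 15 stromal markers, all were above the floor on at least 1 array, with summed signals of 46813 on the knockout-labelled array and 34316 on the control array, although Esr1 (19.8 and 18.4) and Hand2 (22.1 and 21.2) lay at or near it. Their median log2 ratio was 0.06, with 6 of 15 lower, Hoxa11 the lowest at -1.85. Summed signals were 6038 and 7771 for 15 epithelial markers, 1617 and 2874 for 9 endothelial markers and 2460 and 3655 for 9 leukocyte markers, so these 3 lists were lower on the knockout-labelled array in sum. Each list held genes on both sides. Of 14 epithelial markers compared 5 were higher and 9 lower, of the endothelial ones 1 and 8, and of the leukocyte ones 2 and 7. Spink1 alone gave 3917 and 5173 of the epithelial sums. The higher leukocyte markers were Ptprc (545 and 164) and Csf1r (1112 and 817).

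Most cells that are not dividing can build a single primary cilium, an antenna that grows from the mother centriole of the centrosome. Kinesin and dynein motors carry intraflagellar transport trains along it, the BBSome acts as a cargo adaptor on these trains, and the transition zone at the base works as a gate. In dividing cells the centrosome nucleates microtubules through gamma-tubulin ring complexes and helps to organise the spindle. In the uterus, stromal cells receive Hedgehog signals from the epithelium, a pathway that in mammals runs through the primary cilium.

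Promoter windows are shown for the members at both ends of the ratios and for Ift57, which has matches to the half-site of the X-box, a motif bound by RFX factors and known from promoters of ciliary genes. The windows are from RefSeq on GRCm38.p6 and run from 250 bases before to 50 bases after the gene start. They cover chr19:53944578-53944877 on the minus strand for Bbip1, chr14:52110653-52110952 on the plus strand for Rpgrip1, chr5:136907900-136908199 on the plus strand for Ift22, and chr16:49699044-49699343 on the plus strand for Ift57. Capitals mark the half-site GTTGCC or its reverse complement.
Bbip1: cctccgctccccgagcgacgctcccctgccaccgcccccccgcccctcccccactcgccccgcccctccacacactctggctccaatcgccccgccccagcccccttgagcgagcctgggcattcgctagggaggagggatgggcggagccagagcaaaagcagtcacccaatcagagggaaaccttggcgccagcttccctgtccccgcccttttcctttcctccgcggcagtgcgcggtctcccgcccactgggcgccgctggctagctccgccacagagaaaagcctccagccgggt
Rpgrip1: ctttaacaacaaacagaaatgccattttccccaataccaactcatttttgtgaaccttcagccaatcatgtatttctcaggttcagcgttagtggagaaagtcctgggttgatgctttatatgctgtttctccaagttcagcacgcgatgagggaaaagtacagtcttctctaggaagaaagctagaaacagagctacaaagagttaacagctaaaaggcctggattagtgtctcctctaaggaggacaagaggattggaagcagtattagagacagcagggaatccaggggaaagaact
Ift22: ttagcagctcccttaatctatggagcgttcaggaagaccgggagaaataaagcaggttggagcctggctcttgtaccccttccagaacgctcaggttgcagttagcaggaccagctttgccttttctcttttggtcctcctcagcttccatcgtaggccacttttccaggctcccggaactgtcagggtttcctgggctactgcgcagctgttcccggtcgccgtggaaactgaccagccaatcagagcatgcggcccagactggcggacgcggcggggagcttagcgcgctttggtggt
Ift57: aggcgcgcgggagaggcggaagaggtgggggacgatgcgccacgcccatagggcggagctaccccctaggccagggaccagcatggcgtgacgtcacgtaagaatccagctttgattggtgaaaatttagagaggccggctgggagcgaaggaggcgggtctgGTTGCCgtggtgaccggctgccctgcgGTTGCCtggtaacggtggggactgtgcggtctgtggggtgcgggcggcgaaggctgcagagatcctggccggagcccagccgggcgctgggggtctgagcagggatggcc

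Windows were found for 37 of the 44 members. The half-site, searched on both strands, was in 9 of the 37 (24.3%), against 14.3% of the 6965 genes compared on the arrays that had a window and 14.1% of all 27025 genes in the table. By group it was in 5 of 10 transport genes, 4 of 21 centrosome genes and none of the 4 BBSome or the 2 transition zone genes. The window of Bbip1 has 70.7% G and C and 24 CpG dinucleotides, whereas that of Rpgrip1 has 42.7% and 3, against medians of 62.3% and 24 over the members and 61% and 21 over the genes compared. Of the 8 members with a half-site that were compared, 6 were higher and 2 lower on the knockout-labelled array, with ratios from -0.97 to 1.27, and of the 25 without one 16 were higher and 9 lower, from -1.71 to 2.82. A match describes the letters in these windows and is not evidence of a bound site.

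Signals below a floor of 19.7, the 40th percentile of both arrays pooled, were raised to it, since MAS5 signals of dim probe sets can be noise. Each gene was read from its brightest probe set, and the ratio is the log2 signal on the knockout-labelled array minus that on the control array. Of the 44 members, 39 were above the floor on at least 1 array and 5 (Cep164, Cep250, Cep290, Cep295nl and Cep95) were at the floor on both. Of the 39, 5 were at least 2-fold higher on the knockout-labelled array, where 6.21% of all 8593 genes compared were, and 3 were at least 2-fold lower, where 13.0% of all genes were. Without Bbip1 and Rpgrip1, whose values were known when the genes were chosen, 3 of 37 were at least 2-fold higher. At a 1.5-fold size, 10 were higher (18.5% of all genes) and 8 lower (26.4%). The median log2 ratio was 0.32 over the 39 members and -0.10 over all genes compared. By any amount 26 members (66.7%) were higher, against 44.7% of all genes. Without Bbip1 and Rpgrip1 it was 24 of 37 (64.9%). Of the 39, 6 were above the floor on the knockout-labelled array alone, so they could only count as higher. Another 1 was above it on the control array alone. Over all genes these 2 counts were 253 and 474. In cells pooled on 1 array, fewer cells of a type and less RNA per cell cannot be told apart.

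Pairs of probe sets for 1 gene (2660 genes) disagreed with an SD of 0.64 per log2 ratio, the only error available here, and one that leaves out the spread between animals and arrays. It also leaves out that the brightest probe set gave ratios higher by 0.41 on average than the next, and the root mean square with this offset was 0.70. Bbip1, Rpgrip1, Pcm1, Ift22 and Tubgcp2 had ratios more than 2 times either value from 0, and Ift20 only for the SD. Of the 39 members, 26 have a single probe set and 6 more have further ones that were all at the floor on both arrays, so 32 rest on 1 measured probe set. Of the 7 with several measured, 4 gave the same sign throughout.

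**Figure D1:**
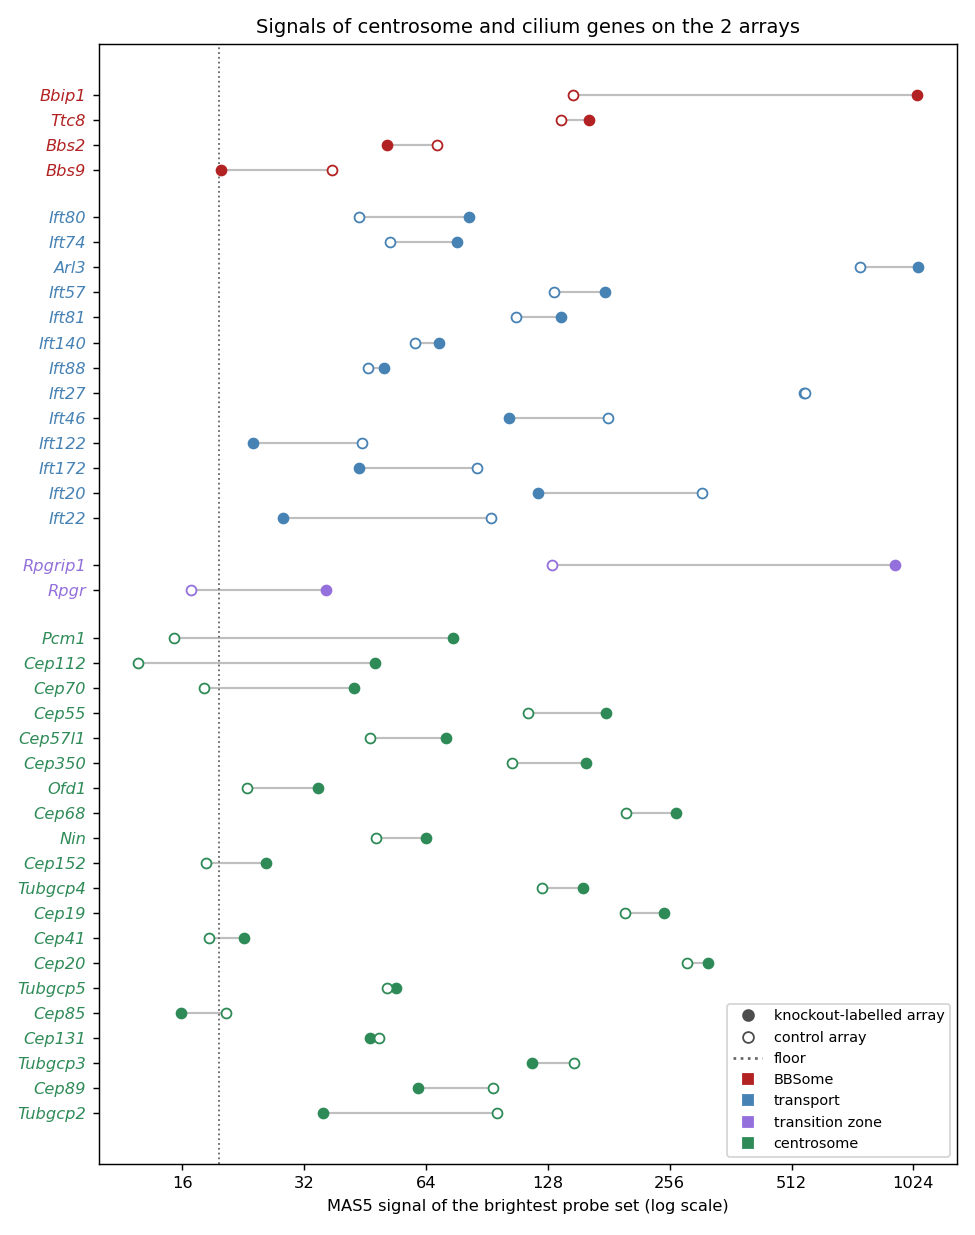
Signal of the brightest probe set of each of the 39 members on the knockout-labelled array (filled) and the control array (open), on a log scale, coloured by group, with the floor dotted. Bbip1 and Rpgrip1 show the widest gaps, and points left of the dotted line (for Pcm1, 15.2 on the control array) count as the floor of 19.7.

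The BBSome is a coat of several subunits that moves membrane receptors through the cilium. Its 4 measured genes did not move together, since 1 was far higher on the knockout-labelled array, 1 slightly higher and 2 lower. Bbip1, which encodes the smallest BBSome subunit, had a signal of 1045 on the knockout-labelled array and 148 on the control array, a log2 ratio of 2.82 (7.07-fold). That ratio ranks first among all 8593 genes compared, and it rests on a single probe set. Ttc8, a subunit also called Bbs8, had signals of 162 and 138 (0.23). Bbs2 had 51.4 and 68.2 (-0.41), and Bbs9 had 19.9 and 37.5 (-0.91), which puts Bbs9 just above the floor on the knockout-labelled array. Bbs2 and Bbs9 are, like Bbip1, subunits of the assembled complex, and their ratios lay on the other side of 0. The median of the group was -0.09, and -0.41 without Bbip1.

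The transition zone genes give the second of the high ratios. Rpgrip1, a scaffold of the photoreceptor connecting cilium that binds Rpgr, had a signal of 920 on the knockout-labelled array and 131 on the control array (log2 ratio 2.81, 7.03-fold, rank 2 of 8593). This value stands on 1 of its 4 probe sets. The other three were at the floor on both arrays, with knockout-labelled signals of 1.75, 0.223 and 19.6 and control signals of 5.29, 3.72 and 10.4, so the high ratio was not seen at any other probe set of the gene. Rpgr, which is a regulator of ciliary GTPases, had a signal of 36.2 on the knockout-labelled array and 16.8, below the floor, on the control array, at least 1.83-fold higher. The positions of the probe sets along these transcripts were not analysed here.

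Intraflagellar transport runs on trains of an IFT-A complex, which returns cargo to the base with dynein, and an IFT-B complex with a core and a periphery, which moves outward with kinesin. All 13 transport genes were above the floor on both arrays. None was at least 2-fold higher (6.21% of all genes were) and 2 were at least 2-fold lower, a share near the 13.0% of all genes. By any amount 7 were higher and 6 lower, and the median log2 ratio was 0.13. The ratios spread from -1.71 to 0.90 with a gap between -0.81 and 0.00, and each part of the machinery held genes on both sides.

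In the IFT-B core, 3 of 6 were higher and 3 lower, Ift27 by almost nothing. Ift22, a small GTPase-like subunit, had signals of 28.3 on the knockout-labelled array and 92.6 on the control array (-1.71, 3.27-fold lower), and it has the lowest ratio of all members. Ift46, known in Chlamydomonas for carrying axonemal dynein, had 102.7 and 181 (-0.81). Ift74 and Ift81 together form a module that binds tubulin, and Ift74 had 76.2 and 52.0 (0.55), while Ift81 had 138 and 107 (0.37) at its brightest probe set but 35.5 and 49.7 at the other (-0.49). The direction of Ift81 was therefore not settled. Ift88, whose loss in mice leaves cells without cilia, had 50.2 and 46.0 (0.13).

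Ift27, a small GTPase of the core needed for the exit of BBSome cargo, gave a different answer at each of its 3 probe sets. Its brightest, which has the suffix _x_at used for probe sets that may match several transcripts, had signals of 550 on the knockout-labelled array and 551 on the control array (0.00). The other _x_at probe set had 128 and 84.6 (0.60). The only probe set without that suffix had 59.3 and 134 (-1.17). Read from that probe set alone, Ift27 would join Ift22 and Ift20 among the members at least 2-fold lower.

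In the IFT-B periphery, Ift20 and Ift172 were lower and Ift57 and Ift80 higher. Ift20, a subunit that also sits at the Golgi and sorts proteins bound for the cilium, had a signal of 121 on the knockout-labelled array and 308 on the control array (-1.34, 2.54-fold lower). Ift172 had 43.7 and 85.6 (-0.97), just short of 2-fold. Ift57 had 177 and 133 (0.42). Ift80 had 81.5 and 43.6 at its brightest probe set (0.90), and its other probe set was at least 1.91-fold higher, with 37.8 on the knockout-labelled array and 18.4, below the floor, on the control array. Ift80 was thus the only transport gene with several measured probe sets that gave the same sign at each.

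The 2 IFT-A genes differed in sign, as Ift122 had signals of 24.0 on the knockout-labelled array and 44.4 on the control array (-0.89) and Ift140 had 68.9 and 59.9 (0.20). Arl3, a GTPase that releases lipid-modified cargo inside the cilium, had 1054 and 754 (0.48). Leaving out probe sets with the suffix _s_at or _x_at moved the median of the transport group to -0.49, against -0.20 for all genes so treated. The brightest probe sets of Ift27 and Ift81 carry such a suffix.

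**Figure D2:**
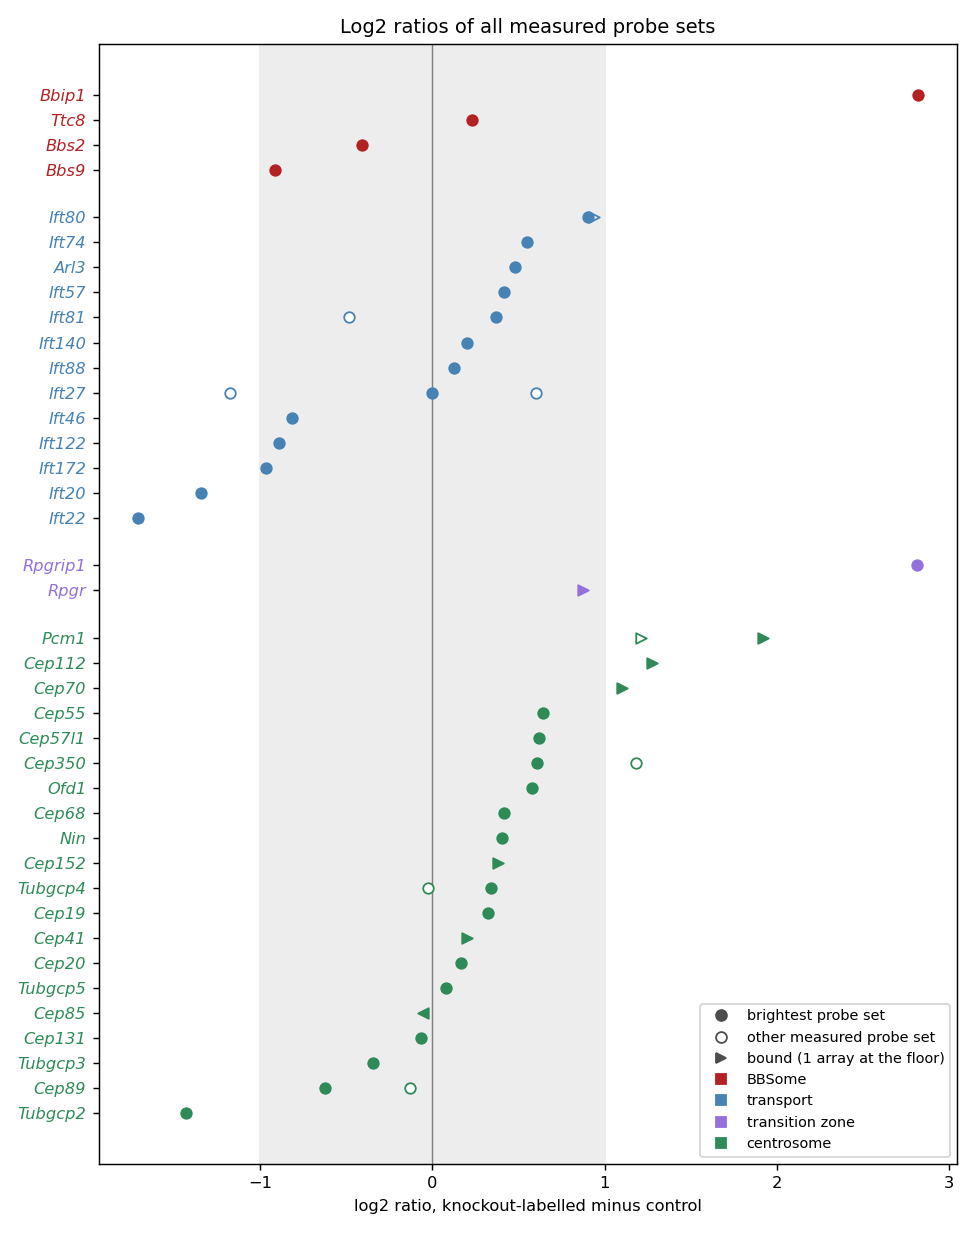
Log2 ratios (knockout-labelled minus control) of every measured probe set of the 39 members, with the brightest filled, others open, bounds as triangles and the band within 2-fold shaded. Centrosome genes lie mostly right of 0, transport genes split, and the 3 probe sets of Ift27 run from -1.17 to 0.60.

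Centrosome genes were mostly higher on the knockout-labelled array, by amounts that were small for most. Of 25 genes 20 were compared, 3 of them at least 2-fold higher and 1 lower by that size, and 15 (75%) were higher by any amount, against 6.21%, 13.0% and 44.7% of all genes. Of these 15, 5 were above the floor on the knockout-labelled array alone, so they could only count as higher. Of the 20, 1 was above it on the control array alone. The median log2 ratio was 0.36, with an interquartile range of 0.05 to 0.61. The 3 past 2-fold higher all had the control array below the floor, so their folds are bounds, and no centrosome gene measured above it on both was 2-fold higher at its brightest probe set.

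The satellites are granules around the centrosome that deliver its proteins. Pcm1, their scaffold, had a signal of 74.5 on the knockout-labelled array and 15.2, below the floor, on the control array, at least 3.77-fold higher. A second probe set of Pcm1 had 45.8 and 14.5, at least 2.32-fold higher, and its other three were at the floor on both arrays. Pcm1 was the only member past 2-fold at 2 probe sets. Ofd1, a protein of satellites and distal centrioles, had 34.5 and 23.1 (0.58), Cep131, another satellite protein, had 46.6 and 48.9 (-0.07), and Cep20, a satellite protein related to the centriolar factor FOP, had 318 and 283 (0.17).

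Cep70 and Cep112 were the other centrosome genes past 2-fold. Cep70, which binds gamma-tubulin, had a signal of 42.3 on the knockout-labelled array and 18.1 on the control array, at least 2.15-fold higher. Cep112 had 47.8 and 12.4, at least 2.42-fold higher, at an _x_at probe set, and its other probe set was at the floor on both arrays. Just outside the 2-fold size on the higher side lay Ift80 (0.90) and Rpgr (0.87 or more), and on the lower side Ift172 (-0.97) and Bbs9 (-0.91). The nearest members past that size were Cep70 (1.10 or more) on the higher side and Ift20 (-1.34) on the lower side.

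Among centriole proteins, Cep350, which acts in centriole stability and ciliation, had signals of 159 on the knockout-labelled array and 104.5 on the control array (0.61), while its other one had 46.6 and 20.6 (1.18). Both probe sets of Cep350 were thus higher, 1 of them past 2-fold. Cep57l1 had 71.5 and 46.6 (0.62). Cep152, a partner of the kinase Plk4 in centriole duplication, was above the floor on the knockout-labelled array alone (25.7, against 18.3), as was Cep41, a factor of tubulin glutamylation (22.7, against 18.6). For both the bound lies too close to 0 to carry a size.

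Genes of the linker and the appendages went both ways. Cep68, a linker protein that ties the centrioles together, had signals of 266 on the knockout-labelled array and 199.8 on the control array at its brightest probe set (0.41), with the other three at the floor. Nin, which anchors microtubules at the subdistal appendages, had 63.8 and 48.2 (0.41), whereas Cep89, a distal appendage protein, had 61.0 and 93.8 (-0.62) and at its other probe set 21.6 and 23.7 (-0.13). Cep19, which helps transport trains enter the cilium, had 247 and 198 (0.32). Cep55, a protein of the midbody that acts at the last step of cell division, had 178 and 114 (0.64). Cep85 was above the floor on the control array alone (15.9 on the knockout-labelled array, against 20.5).

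Of the gamma-tubulin complex, which nucleates microtubules, 2 of 4 genes were higher and 2 lower. Tubgcp2, a subunit present in every such complex, had a signal of 35.5 on the knockout-labelled array and 95.8 on the control array (-1.43, 2.69-fold lower), and Tubgcp3, its partner in the small complex, had 117 and 148 (-0.34). Tubgcp4 had 157 and 124 (0.34), with 55.3 and 56.2 (-0.02) at its other probe set. Tubgcp5 had 54.1 and 51.2 (0.08). The subunits that make up the ring only in the large complex, Tubgcp4 and Tubgcp5, thus lay within 0.34 of 0, and Tubgcp2 alone was past 2-fold.

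Ratios on these arrays depended on signal, with medians over all genes of -0.24 in the dimmest of 5 equal groups, -0.36 in the next and 0.31 in the brightest. After removal of this trend, a smooth curve of ratio on signal, the members had a median of 0.40 and all genes one of -0.01, and 27 of 39 members lay above the curve. With Bbip1 and Rpgrip1 left out, the members' median was again 0.40, and 25 of 37 lay above the curve. Within each of the 5 groups of signal the members' median was above that of all genes (0.48, 0.08, 0.35, 0.32 and 0.48 for 10, 13, 8, 5 and 3 members, from dim to bright, against -0.24, -0.36, -0.19, -0.00 and 0.31). In the brightest group this depends on Bbip1 (2.82), whose value was known when the genes were chosen. The other members there, Arl3 at 0.48 and Ift27 at -0.00, lay on either side of the 0.31 of all genes.

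**Figure D3:**
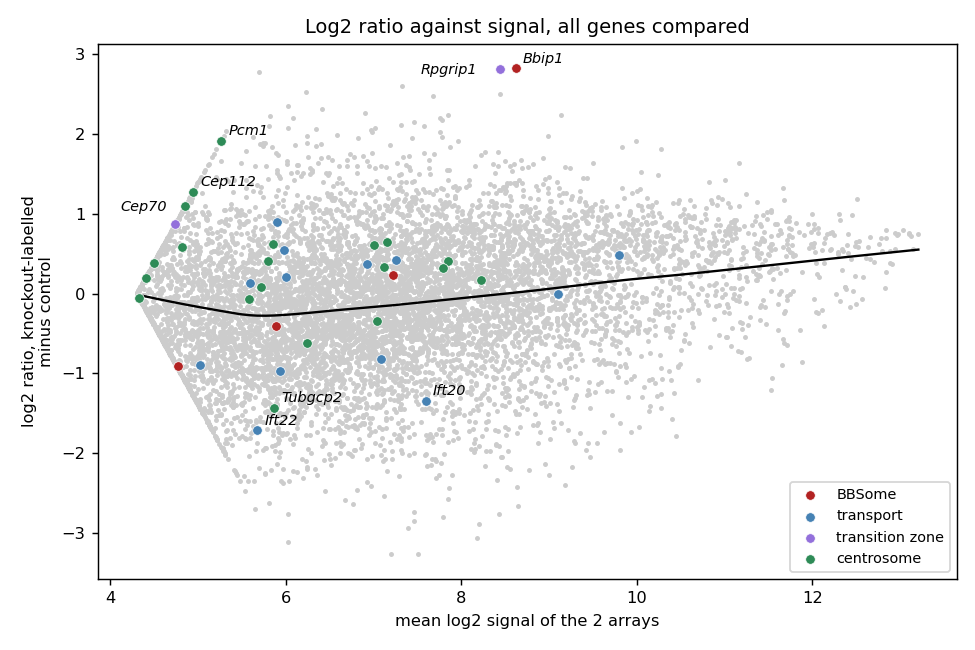
Log2 ratio against mean log2 signal for all 8593 genes compared (grey), with the curve of ratio on signal (black) and the 39 members coloured by group. The members past 2-fold are named. The straight edges at the left are genes at the floor on 1 array, among them Pcm1, Cep112 and Cep70.

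**Figure D4:**
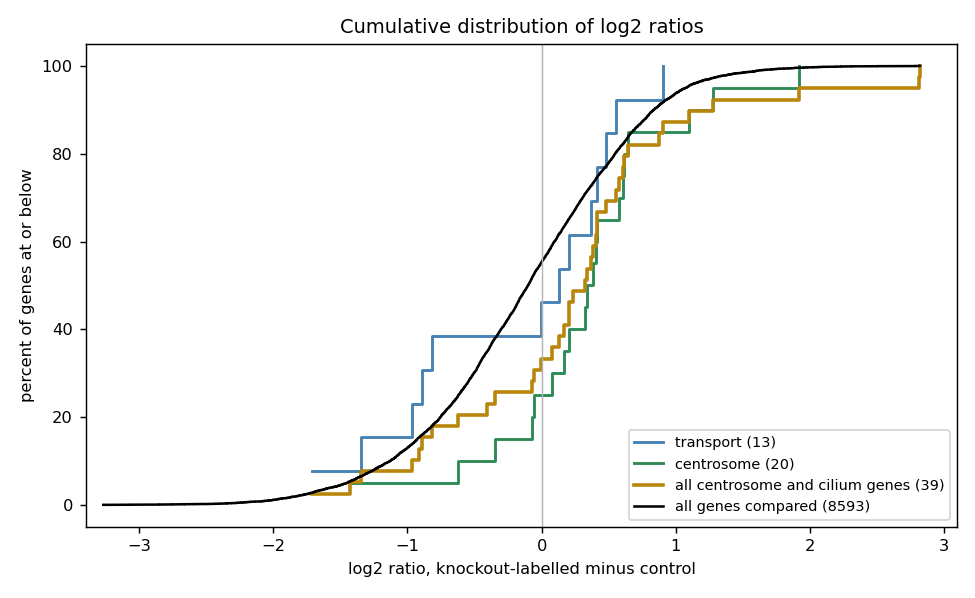
Share of genes (percent) at or below each log2 ratio, for transport genes, centrosome genes, all 39 members and all 8593 genes compared. The centrosome curve lies to the right of that of all genes over most of its course (medians 0.36 and -0.10), and the transport curve crosses it.

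Other genes of the same structures, from lists that exclude the members, were compared by the same rule, and their counts stand against 6.21% of all genes at least 2-fold higher and 13.0% lower by that size. Of 12 transport motors and adaptors, 1 was at least 2-fold higher and none lower (median 0.14), namely Lztfl1, a regulator of BBSome traffic, with signals of 150.5 on the knockout-labelled array and 72.9 on the control array (1.05). Of 11 transition zone and nephronophthisis genes, none was at least 2-fold higher, and B9d1 (39.1 and 126, -1.68) and Tmem216 (28.1 and 73.5, -1.39), both parts of the gate at the ciliary base, were at least 2-fold lower. That list had a median of -0.36 with 8 of 11 lower by any amount, against 55.3% of all genes. The 2 transition zone members were both higher, but they are not a like comparison. Rpgrip1 was chosen with its value known and was high at 1 of its 4 probe sets. Rpgr was above the floor on the knockout-labelled array alone, so it could only count as higher. Of 19 genes of ciliary lipid cargo and its GTPases, 3 were at least 2-fold lower, namely Arl2, a GTPase related to Arl3 (-1.47), Rab8a, which brings vesicles to the cilium (-1.12), and Pde6d, a carrier of prenylated proteins whose cargo Arl3 releases (-1.05), and none was higher (median -0.31).

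Of 18 genes of centriole duplication and appendages, 2 were at least 2-fold higher and none lower (median 0.21). They were Plk4, the kinase that starts centriole duplication, with signals of 483 on the knockout-labelled array and 129 on the control array (1.91), and Cntln, a linker protein (1.21). Of 30 genes of gamma-tubulin, augmin and pericentriolar material, 5 were at least 2-fold higher and 1 lower (6.21% and 13.0% of all genes). Their median was -0.26, and 21 were lower by any amount, against 55.3% of all genes. The highest were Haus6 (103 and 27.9, 1.88) and Haus3 (111 and 41.6, 1.42), both subunits of augmin, which branches microtubules in the spindle, and Fgfr1op2 (1.39), and the lowest was Plk1, a mitotic kinase (35.3 and 131, -1.89). The other 6 of the 8 augmin subunits, grouped after their values were seen, were lower, 5 of them by less than 2-fold (down to -0.74 for Haus4) and Haus5 by at least 1.35-fold, with the knockout-labelled array below the floor. Of 27 genes of mitosis and S phase, 2 were at least 2-fold higher and 5 lower (median 0.07), with the proliferation marker Mki67 at 1.54, the spindle checkpoint kinase Ttk at 1.43, and Mcm5 (-1.77), Kif20a (-1.44) and Birc5 (-1.38) lowest.

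Markers of cells with motile cilia, which in the reproductive tract belong to epithelium, were mostly at the floor. Of 34 marker names 10 had a probe set, and 8 of these were at the floor on both arrays, among them Foxj1, the master regulator of motile cilia (signals of 1.09 on the knockout-labelled array and 2.74 on the control array), and the dynein heavy chains Dnah5 and Dnah11. The other two were lower on the knockout-labelled array, namely Tppp3, which was well above the floor on both (69.1 and 201), and Tekt2 (11.9, below the floor, and 31.8). Summed signals over the 10 were 121 on the knockout-labelled array and 278 on the control array.

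**Figure D5:**
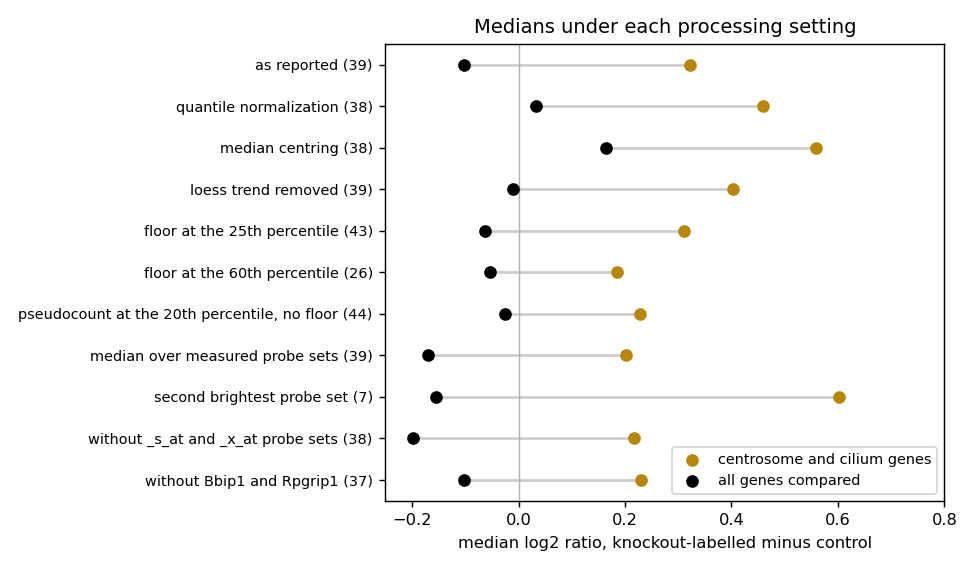
Median log2 ratio (knockout-labelled minus control) of the members and of all genes compared under each processing setting, with the number of members compared in parentheses. The members' median lies to the right of that of all genes in all 11 settings, from 0.18 to 0.60.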

How the data were processed

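RNA of mouse uterine stromal cells was measured on 2 arrays, 1 per group, grouped from their titles. Per the submitters' processing notes, the authors made the deposited intensities, 1 linear MAS5 signal per probe set, with MAS5 in Affymetrix Expression Console version 1. Their scaling was kept, with a target value not given in the sources used here. Per the labels' protocols, RNA was Trizol-extracted and labelled with a 3′ kit.

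Members, lists and rules were chosen with earlier results of these data known. Of the 22626 probe sets left after removing controls, 20380 have a single symbol in the platform annotation, 20351 of them updated through the RefSeq gene table (GRCm38.p6). Values at the floor of 19.7 on both arrays (3800 genes) were left out, which left 8593 genes. Named are all members measured, and in other lists the 3 highest and 3 lowest past 2-fold. With 1 array per group there is no p-value, and the number of arrays limits the precision. Counting was tested on simulated data. Alternatives were 3 scalings, 2 floors, a pseudocount, 3 choices of probe set and other sizes. Tools were Python 3.11.15, pandas 2.3.3 and statsmodels 0.14.6.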

Additional observations from a re-analysis of the deposited data

Results flagged for a closer look

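The control probe sets, which enter no gene comparison, gave a 3′ to 5′ signal ratio of 16.0 on the knockout-labelled array and 2.27 on the control array for b-actin, 7.08-fold apart. For Gapdh it was 7.25 and 1.49, 4.86-fold apart. Both were picked out because their level on the knockout-labelled array exceeded that on the control array. Groups of 1 array allow no look for a sample far from the others.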

How the results depend on the processing

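The median log2 ratio of the members stayed above 0 under all alternatives run, from 0.18 (floor at the 60th percentile) to 0.60 (second brightest probe set, 7 members). The median of all genes was -0.10 as reported, 0.03 after quantile normalization, 0.16 after centring each array on its median and -0.01 after removal of the trend, and the members' median stood 0.39 to 0.43 above it in each of these. That difference was smaller with the floor at the 60th percentile (0.24) and with the pseudocount (0.25), and it was 0.76 at the second brightest probe set. It was 0.33 without Bbip1 and Rpgrip1, where the members' median was 0.23. The scalings were run with both genes included. Shares of all genes at least 2-fold higher and lower were 8.28% and 9.53% after quantile normalization, 13.4% and 7.77% after centring and 7.67% and 9.89% after removal of the trend. In all 3 the members gave 3 lower, with 7, 7 and 6 higher.

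The members at least 2-fold higher were 5 as reported. With the floor at the 60th percentile they were 2 of 26 compared (6.04% of all genes), and at the second brightest probe set 2 of 7 (7.15%). Without Bbip1 and Rpgrip1 they were 3 of 37 (6.19%). When both arrays had to be above the floor, a setting chosen after seeing the data, they were 2 of 32 (500 of 7866 genes). Without probe sets with the suffix _s_at or _x_at, 4 of 38 were higher (5.57%) and 4 lower (15.4%). The members at least 2-fold lower, 3 as reported, were 1 with the floor at the 60th percentile and 0 at the second brightest probe set. No test was run, so that 0 has no p-value beside it. A size of 1.5-fold gave 10 higher (18.5% of all genes) and 8 lower (26.4%). A size of 3-fold gave 3 higher and 1 lower, against 106 and 330 of all 8593 genes. The higher floor leaves fewer genes and shrinks ratios that end at it, and under it Pcm1 was at 0.17, Ift22 at -0.48 and Tubgcp2 at -0.53. Bbip1, Rpgrip1 and Ift20 stayed past 2-fold under each of the 7 scaling, floor, pseudocount and probe set median settings. Cep112 and Cep70 did so under 6 of these. With the floor at the 60th percentile both fell to the floor on both arrays and dropped out, so that setting lends them no stability. Cep112, measured only at an _x_at probe set, also drops out when such probe sets are left out. No paired analysis was possible because each group has 1 array. MAS5 signals near the floor limit what the dim members can show.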
